A study of Mus musculus with 6 samples.

Results

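The circadian clock genes described here are Arntl, Npas2, Per1, Per2, Per3, Cry1, Cry2, Nr1d1, Nr1d2 and Dbp, 10 of the 54532 rows of the gene count table that carry an Ensembl gene ID. They were chosen by name, through the GRCm38 annotation, and each was set side by side in every mouse. Poly(A) RNA from whole liver was sequenced from 6 mice, 1 library each: 3 Cd44 knockout mice (KO), homozygous for the targeted allele of the strain B6.Cg-Cd44tm1Hbg/J, and 3 wild-type mice (WT). The deletion is in every cell of the animal, and the sources used here do not say whether WT mice were littermates. For 10 days both genotypes drank a Lieber-DeCarli diet that held 5% (vol/vol) ethanol, and on day 11 a gavage of 5 g/kg ethanol in the early morning. Livers were taken 9 hours after the gavage. No liver without ethanol was analysed here, and the light schedule, the clock time of each death, sex and age were not given in the sources used.

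The mammalian clock is a loop of transcription and repression that runs in nearly every cell. ARNTL (also called BMAL1), paired with CLOCK or its relative NPAS2, binds E-boxes and switches on the Per and Cry genes, whose proteins return to the nucleus and inhibit it. The same activators drive Nr1d1 and Nr1d2, which encode the REV-ERB repressors of Arntl and Npas2, and Dbp, a transcription factor that passes the rhythm on to liver enzymes through D-boxes. In the liver of mice kept in light and dark, Arntl and Npas2 transcripts are known to peak around the end of the night, Nr1d1 around the middle of the day, Dbp soon after, and the Per genes towards dusk, so the set of levels in a liver depends on the time at which it was taken. Ethanol and the time of feeding are also known to act on the liver clock.

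Libraries held 15493009 to 19346623 counts. Cd44, the targeted gene, had 1, 0 and 0 counts in KO mice 1, 2 and 3, against 590, 175 and 568 counts in WT mice 1, 2 and 3, and no library went against its label. Hepatocyte genes such as Alb and Apoa1 were abundant in every library, and the 11 hepatocyte markers found summed to 96160 to 120200 CPM (counts per 1000000 counts of the library, after TMM scaling) in KO mice and to 88360 to 106900 CPM in WT mice. The 12 macrophage and monocyte markers summed to 282 to 312.5 CPM in KO mice and to 351 to 951 CPM in WT mice, with WT mouse 2 nearest to KO; all 12 had lower means in KO, 9 of them at an unadjusted edgeR p under 0.05, where 7.59% of all genes tested were lower in KO at that threshold, and none was at 0 in every library. In RNA from whole tissue, fewer cells of a type and less RNA per cell cannot be told apart.

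No clock gene passed a test for a difference between KO and WT livers. In edgeR's quasi-likelihood test, 0 of the 10 genes passed an adjusted p of 0.05, where 0.0141% of all 14145 genes tested did. At an unadjusted p under 0.05 the count was also 0 of 10, where 12.8% of all genes tested passed. DESeq2 and limma-voom likewise gave 0 of 10 at either threshold, where 2.4% and 0.0% of all genes tested passed the adjusted one; DESeq2 gave Npas2 no adjusted p. For all 10 genes the values of KO and WT mice overlapped, where the genotypes were apart for 18.2% of all genes tested. With 10 genes, a count of 0 is close to what these background shares give and sets the clock genes apart from no others. Mean levels were higher in KO for 6 genes and lower for 4, with a median log2 fold change of 0.02, against -0.01 over all genes tested. The size of difference the data leave room for ran from narrow to wide, as the 95% intervals below show.

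**Figure D1:**
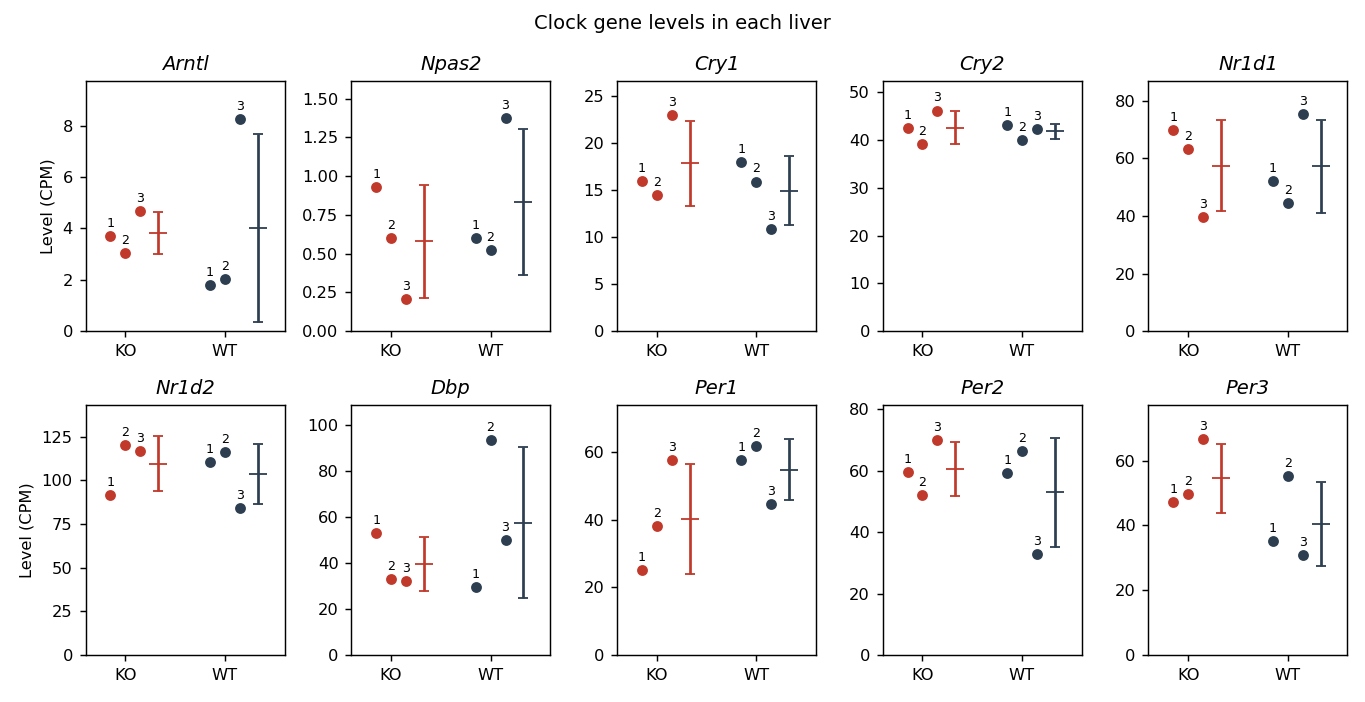
Level of each clock gene in CPM (vertical axes, linear, starting at 0) in the livers of KO mice and WT mice; points are single mice labelled by mouse number, and the bars are mean ± SD (n = 3 each). The points of the genotypes overlap in all 10 panels, with WT mouse 3 highest for Arntl, Npas2 and Nr1d1 and lowest for Cry1, Nr1d2, Per2 and Per3.

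In 4 of the 10 genes a promoter window held a motif through which the loop runs. Those windows are shown because their genes stand on opposite sides of the loop. RefSeq sequences (GRCm38.p6) were matched by symbol for 9 of the 10 genes, in 11 windows of 300 bases, from 250 bases before a gene's start to 50 after it. Both strands were searched for the E-box CACGTG, the D-box as TTATGTAA or TTACGTAA, the core of the REV-ERB and ROR element as TAGGTCA or TGGGTCA, and the cyclic AMP response element TGACGTCA; no motif matched at overlapping positions. An E-box was found in 1 of the 2 windows of Per1, 166 bases before the start of a RefSeq transcript that begins inside the gene span given below, and in Cry1, 60 bases before the start, against 7.15% of all 32851 windows. Per3 held 2 D-boxes, 205 and 158 bases before the start, against 1.06% of all windows with any. Arntl held the REV-ERB and ROR core 30 bases after the start of 1 of its windows, against 6.45% of all windows. The other windows held none of these letters, which says nothing of sites elsewhere. Each line runs 5′ to 3′ on the strand of the gene, with the matched motif in capitals.
Per1, chr11:69098699-69098998, plus strand: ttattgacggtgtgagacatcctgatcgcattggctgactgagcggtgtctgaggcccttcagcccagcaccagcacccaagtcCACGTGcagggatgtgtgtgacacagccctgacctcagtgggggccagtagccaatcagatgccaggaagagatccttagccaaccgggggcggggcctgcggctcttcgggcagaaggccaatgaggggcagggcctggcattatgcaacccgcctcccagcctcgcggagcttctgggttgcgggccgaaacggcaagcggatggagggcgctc
Cry1, chr10:85185005-85185304, minus strand: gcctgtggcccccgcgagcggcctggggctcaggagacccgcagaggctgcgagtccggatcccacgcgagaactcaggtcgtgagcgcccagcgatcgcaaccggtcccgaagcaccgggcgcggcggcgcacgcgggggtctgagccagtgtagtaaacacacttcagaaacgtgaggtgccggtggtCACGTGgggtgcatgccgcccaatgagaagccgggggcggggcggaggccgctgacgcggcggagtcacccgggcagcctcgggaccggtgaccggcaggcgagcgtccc
Per3, chr4:151044616-151044915, minus strand: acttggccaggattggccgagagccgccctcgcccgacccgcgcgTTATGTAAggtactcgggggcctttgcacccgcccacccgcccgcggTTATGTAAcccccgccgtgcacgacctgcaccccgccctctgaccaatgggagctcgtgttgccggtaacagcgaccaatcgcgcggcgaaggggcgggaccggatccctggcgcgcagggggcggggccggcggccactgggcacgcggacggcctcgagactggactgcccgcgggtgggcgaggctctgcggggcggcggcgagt
Arntl, chr7:113207261-113207560, plus strand: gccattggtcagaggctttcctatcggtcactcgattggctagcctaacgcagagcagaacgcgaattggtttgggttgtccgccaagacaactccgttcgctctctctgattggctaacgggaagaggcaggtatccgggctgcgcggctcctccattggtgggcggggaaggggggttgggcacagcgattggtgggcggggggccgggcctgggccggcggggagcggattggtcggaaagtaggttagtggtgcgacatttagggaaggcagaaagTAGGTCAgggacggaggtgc

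Arntl and Npas2, the activators, had the lowest levels per length of the set in all 6 livers. Over both genotypes Arntl averaged 0.521 and Npas2 0.147 CPM per kilobase of merged exons, and the highest Arntl value, 1.10, lay below the lowest value of each of the other 8 genes, 3.22 in Per3. Arntl (ENSMUSG00000055116, GRCm38 chromosome 7, 113207465 to 113314126) had 3.72, 3.06 and 4.66 CPM in KO mice 1, 2 and 3, against 1.80, 2.02 and 8.25 CPM in WT mice 1, 2 and 3. The KO values were close together and lay between those of WT mice 1 and 2 on the low side and WT mouse 3 on the high side. KO mice averaged 3.81 ± 0.807 CPM and WT mice 4.02 ± 3.67 CPM (SD, n = 3 each), with a log2 fold change of -0.10 ± 0.58 (SE; 95% interval -1.46 to 1.25; edgeR adjusted p = 0.967). The sign was not stable: the log2 fold change was 0.99 without WT mouse 3 (edgeR unadjusted p = 0.0142, adjusted p = 0.304), with every KO value above the remaining WT values, and 0.044 without KO mouse 2. Npas2, which can stand in for CLOCK, had 14, 12 and 3 counts in KO mice 1, 2 and 3, against 11, 8 and 27 counts in WT mice 1, 2 and 3, or 0.579 ± 0.362 CPM in KO and 0.832 ± 0.472 CPM in WT. As for Arntl, WT mouse 3 was the highest of the 6. Its log2 fold change was -0.54 ± 0.60 (95% interval -1.92 to 0.84; edgeR adjusted p = 0.779), and so few counts limit what can be told from it. Clock itself, the partner of ARNTL, ran from 39.5 to 42.5 CPM in KO mice and from 31.1 to 50.3 CPM in WT mice (log2 fold change 0.02 ± 0.17, edgeR adjusted p = 0.976), again with WT mouse 3 highest.

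The Per genes, repressors of ARNTL, did not share 1 direction. Per1 (chromosome 11, 69095217 to 69109960), which also answers to glucocorticoids and cyclic AMP, had 25.0, 38.2 and 57.7 CPM in KO mice 1, 2 and 3, against 57.9, 62.0 and 44.7 CPM in WT mice 1, 2 and 3. KO mice 1 and 2 lay below all WT mice, while KO mouse 3 lay among them. The log2 fold change was -0.44 ± 0.29 (95% interval -1.12 to 0.23; edgeR adjusted p = 0.582), and without KO mouse 3 it was -0.78 (unadjusted p = 0.0127, adjusted p = 0.698), but -0.18 without KO mouse 1 (unadjusted p = 0.455). Per2 (chromosome 1, 91415982 to 91459324), the Per gene most tied to systemic and temperature cues, had 59.5, 52.2 and 70.0 CPM in KO mice 1, 2 and 3, against 59.4, 66.4 and 33.0 CPM in WT mice 1, 2 and 3. WT mouse 3 was well below the other 5 mice, in which the genotypes were mixed. Its log2 fold change of 0.19 ± 0.25 (95% interval -0.40 to 0.79; edgeR adjusted p = 0.819) was -0.055 without that mouse. Per3 (chromosome 4, 151003652 to 151044665), whose promoter carries the D-boxes printed above, had 47.1, 49.8 and 66.7 CPM in KO mice 1, 2 and 3, against 35.2, 55.3 and 30.9 CPM in WT mice 1, 2 and 3. It came closest of the 10 to a genotype difference, at 54.5 ± 10.6 CPM in KO and 40.5 ± 13.0 CPM in WT (log2 fold change 0.43 ± 0.24, 95% interval -0.12 to 0.98; edgeR adjusted p = 0.512). Only WT mouse 2 overlapped the KO values, and without it the log2 fold change was 0.73 (unadjusted p = 0.0049, adjusted p = 0.119), while it was 0.27 without KO mouse 3 and 0.27 without WT mouse 3.

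Cry1 and Cry2, the other repressors, differed in how much they varied. Cry2 (chromosome 2, 92403646 to 92434043), a light-independent cryptochrome in mammals, had 42.6, 39.2 and 46.2 CPM in KO mice 1, 2 and 3, against 43.2, 40.1 and 42.2 CPM in WT mice 1, 2 and 3. All 6 livers were thus within a ratio of 1.18, and the 95% interval of the log2 fold change, 0.03 ± 0.11, ran from -0.23 to 0.29 (edgeR adjusted p = 0.953), or 0.850 to 1.22 as a ratio of KO to WT. Cd44 is on chromosome 2 as well, at a distance of 10.4 Mb. Cry1 (chromosome 10, 85131700 to 85185064), whose transcript normally peaks later than those of other E-box genes, had 16.0, 14.5 and 23.0 CPM in KO mice 1, 2 and 3, against 18.0, 15.9 and 10.9 CPM in WT mice 1, 2 and 3. KO mouse 3 was the highest and WT mouse 3 the lowest, with the other 4 mice between (log2 fold change 0.26 ± 0.24, 95% interval -0.30 to 0.81; edgeR adjusted p = 0.728). Without KO mouse 3 the log2 fold change was 0.040, and without WT mouse 3 it was 0.068.

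Nr1d1 and Nr1d2, which encode REV-ERB alpha and beta, had the highest levels per length together with Dbp, averaging 18.6 and 19.7 CPM per kilobase, against 16.2 for Dbp. Ranges over the 6 mice overlapped between all neighbours in the order of levels per length (Npas2, Arntl, Cry1, Per3, Cry2, Per1, Per2, Dbp, Nr1d1 and Nr1d2, from low to high) except between Arntl and Cry1. Nr1d1 (chromosome 11, 98767932 to 98775333) had 69.8, 63.1 and 39.5 CPM in KO mice 1, 2 and 3, against 52.0, 44.5 and 75.4 CPM in WT mice 1, 2 and 3. The genotypes were interleaved and their means nearly equal, 57.5 ± 15.9 CPM in KO and 57.3 ± 16.1 CPM in WT, with a log2 fold change of 0.00 ± 0.26 (95% interval -0.61 to 0.61; edgeR adjusted p = 0.996). Its exons share 263 of 3077 bases with Thra, the thyroid hormone receptor gene on the opposite strand, which had 144 to 267 counts per library against 576 to 1479 for Nr1d1, and strand is not known to have been used in counting. Nr1d2 (chromosome 14, 18204054 to 18239127) varied less, with 91.3, 120.1 and 116.9 CPM in KO mice 1, 2 and 3, against 110.5, 116.2 and 84.1 CPM in WT mice 1, 2 and 3. KO mouse 1 and WT mouse 3 were low and the other 4 alike (log2 fold change 0.08 ± 0.17, 95% interval -0.31 to 0.46; edgeR adjusted p = 0.896).

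Dbp (ENSMUSG00000059824, chromosome 7, 45705088 to 45710203), the output factor, had 53.1, 33.1 and 32.3 CPM in KO mice 1, 2 and 3, against 29.4, 93.5 and 50.2 CPM in WT mice 1, 2 and 3. WT mouse 2 stood above all others, and WT mouse 1 was the lowest of the 6. KO mice averaged 39.5 ± 11.8 CPM and WT mice 57.7 ± 32.7 CPM, with a log2 fold change of -0.55 ± 0.42 (95% interval -1.55 to 0.46; edgeR adjusted p = 0.660). Leaving out WT mouse 2 gave a log2 fold change of -0.003, and leaving out WT mouse 1 gave -0.86 (unadjusted p = 0.0393, adjusted p = 0.383). Dbp shares 539 of its 2993 exon bases with Sphk2 on the opposite strand, a sphingosine kinase gene with 458 to 881 counts per library against 471 to 1432 for Dbp, so its values are uncertain by an unknown share of reads.

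**Figure D2:**
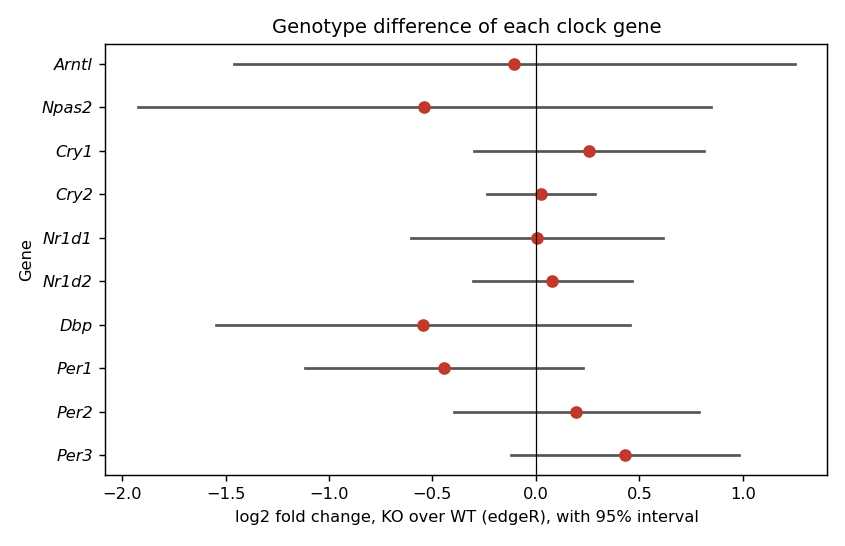
Genotype difference of each clock gene as the edgeR log2 fold change of KO over WT (horizontal axis), with genes down the page; points are estimates and lines are 95% intervals from 3 mice per genotype. All 10 intervals cross 0, from the narrow one of Cry2 (-0.23 to 0.29) to the wide ones of Arntl (-1.46 to 1.25) and Npas2 (-1.92 to 0.84).

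Spread between mice of the same genotype separated the clock genes from each other. The pooled within-genotype SD of log2(CPM + 0.5) was 0.79 for Arntl and 0.65 for Dbp, larger than in 97.0% and 94.6% of all genes tested. Within genotypes, the SD of Arntl was 0.27 in KO and 1.08 in WT, where WT mouse 3 stood apart, and that of Dbp was 0.40 in KO and 0.83 in WT. Cry2 stood at the other end with an SD of 0.092, larger than in 6.97% of genes, and Nr1d2, at 0.23, lay at the median of all genes, 0.23. The remaining 6 clock genes had SDs of 0.35 to 0.50, larger than in 73.8% to 87.9% of genes. In 6 of the 10 genes the SD was larger among WT mice than among KO mice, where 67.3% of all genes tested showed the same. For Per1 the order was the other way, 0.59 in KO and 0.25 in WT.

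WT mouse 3 and KO mouse 3 held most of the extreme values. WT mouse 3 was the highest of the 6 for Arntl, Npas2 and Nr1d1 and the lowest for Per2, Per3, Cry1 and Nr1d2, so it was at an extreme for 7 of 10 clock genes, where it was at one for 47.4% of all genes tested. KO mouse 3 was highest for Per2, Per3, Cry1 and Cry2 and lowest for Npas2 and Nr1d1, 6 of 10 against 34.8% of all genes. These 2 mice thus lay at opposite ends for Npas2, Nr1d1, Per2, Per3 and Cry1, and on the same side, high, for Arntl. WT mouse 3 also stood apart for single genes outside the clock, picked after their values were seen. The acute-phase gene Lcn2 was at 1528 CPM in WT mouse 3 and at 61.6 to 189 CPM in the other 5 mice, the proliferation marker Mki67 at 22.5 CPM against 1.13 to 8.43 CPM, and the pericentral enzyme gene Glul at 215 CPM against 722 to 1206 CPM. The 15 acute-phase genes listed, Lcn2 among them, summed to 22910 CPM in WT mouse 3, against a higher 24090 CPM in KO mouse 1. All 10 cell cycle genes listed, Mki67 among them, were lower in KO. Of these, 9 had an unadjusted edgeR p under 0.05, where 7.59% of all genes tested were lower at that threshold. Neither the part of these genes in the clock values nor that of the time of death was tested.

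**Figure D3:**
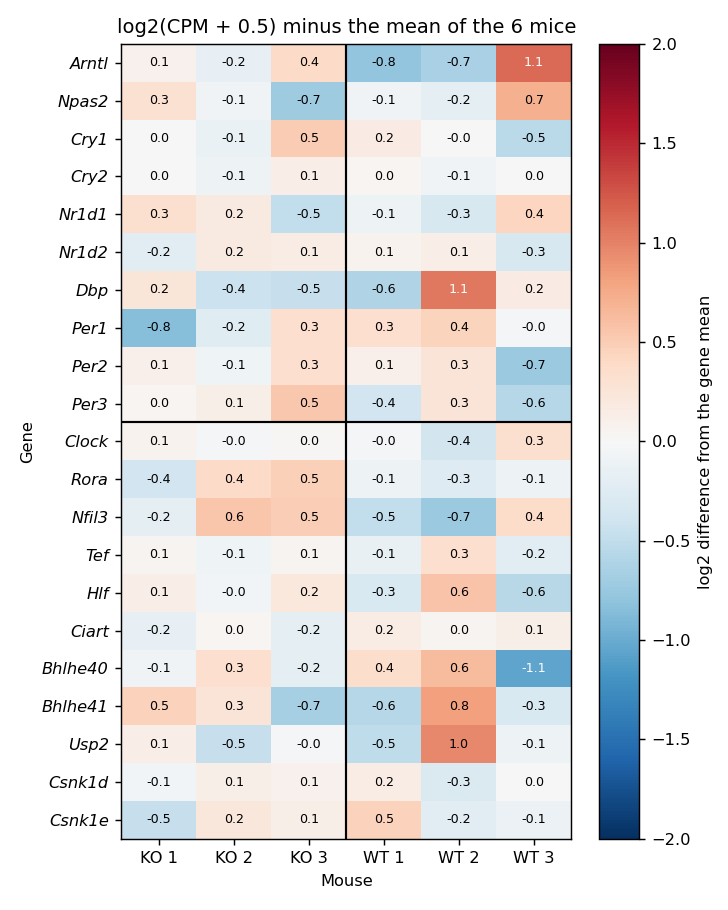
Pattern of clock genes by mouse: colour and number give log2(CPM + 0.5) minus the mean over the 6 mice, with KO mice left of WT mice, the 10 clock genes above the line and further loop genes below it. WT mouse 3 shows high Arntl with low Per2, Per3 and Bhlhe40, and WT mouse 2 shows high Dbp and Usp2.

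Ratios between clock genes within a liver depend little on library scaling (the Dbp to Arntl difference given here was -0.63 with TMM and with RLE factors), and these too overlapped between the genotypes. The log2 ratio of Dbp to Arntl, in CPM with 0.5 added, was 3.67, 3.24 and 2.67 in KO mice 1, 2 and 3, against 3.70, 5.22 and 2.53 in WT mice 1, 2 and 3. KO mice lay inside the WT range, with means of 3.19 ± 0.50 in KO and 3.82 ± 1.35 in WT (SD, n = 3 each), a difference of -0.63 that was 0.074 without WT mouse 2. The log2 ratio of Per2 to Arntl was 3.83, 3.89 and 3.77 in KO mice 1, 2 and 3, against 4.71, 4.73 and 1.93 in WT mice 1, 2 and 3. The KO mice were almost equal, and WT mice lay on both sides of them. For Per2 to Nr1d1, a repressor of late day against one of midday, the log2 ratio was -0.23, -0.27 and 0.82 in KO mice 1, 2 and 3, against 0.19, 0.57 and -1.18 in WT mice 1, 2 and 3. Here KO mouse 3 was the highest and WT mouse 3 the lowest of all. Since the values were made from the clock genes themselves, no test was applied, and gene length is not taken out, so that differences between mice can be read but not the ratios as such.

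**Figure D4:**
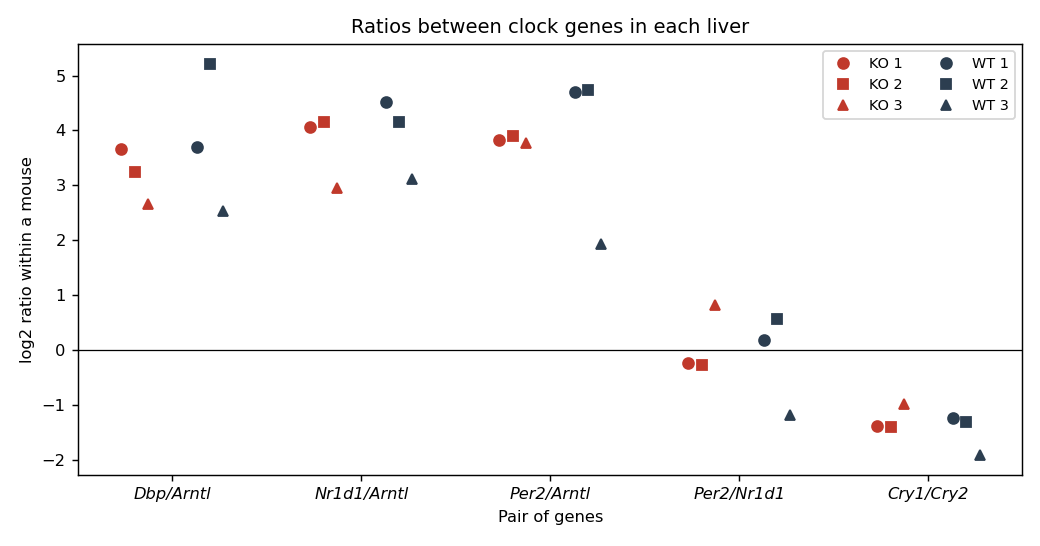
Log2 ratios of CPM between pairs of clock genes within each liver (vertical axis), with KO mice left of WT mice in each pair of genes and the symbol giving the mouse number. For Dbp/Arntl the KO mice, at 2.67 to 3.67, sit inside the WT range of 2.53 to 5.22, and WT mouse 3 is lowest for Dbp/Arntl, Per2/Arntl, Per2/Nr1d1 and Cry1/Cry2.

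Further genes of the loop gave no call either. Of 25 further loop genes, listed from textbook knowledge, 24 were tested. In edgeR 0 passed at an adjusted p of 0.05 and 0 at an unadjusted p under 0.05, DESeq2 called 0, and the median log2 fold change was 0.02. Leaving out each mouse in turn gave 0 to 2 at an unadjusted p under 0.05. KO and WT values were apart for 2 of the 24, both lower in KO, where 9.42% of all genes tested did so in that direction. These were Ciart, which encodes the repressor CHRONO (7.72 ± 0.693 CPM in KO and 9.00 ± 0.349 CPM in WT, log2 fold change -0.22 ± 0.16, edgeR adjusted p = 0.644), and the ubiquitin ligase gene Btrc (edgeR adjusted p = 0.457), which is named after its values were seen. Rora encodes a ROR factor, which activates Arntl through the element that REV-ERB blocks. It gave 88.1 ± 26.1 CPM in KO and 68.9 ± 4.53 CPM in WT (log2 fold change 0.36 ± 0.22, edgeR adjusted p = 0.549). With each mouse left out its log2 fold change ran from 0.21 (without KO mouse 3) to 0.60 (without KO mouse 1). Nfil3, a repressor that competes with DBP at D-boxes, was at 14.7, 24.8 and 23.5 CPM in KO mice 1, 2 and 3, against 11.7, 9.72 and 21.7 CPM in WT mice 1, 2 and 3 (log2 fold change 0.54 ± 0.33, edgeR adjusted p = 0.552). With each mouse left out its log2 fold change ran from 0.34 (without WT mouse 2) to 0.97 (without WT mouse 3). WT mouse 3 again stood apart from the other WT mice and lay among the KO mice.

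The D-box factors Tef and Hlf, relatives of DBP, did not pass the test. Tef averaged 183 ± 10.3 CPM in KO and 184 ± 39.6 CPM in WT, and Hlf 60.5 ± 5.39 CPM in KO and 55.9 ± 24.7 CPM in WT (edgeR adjusted p = 0.992 and 0.911). For both, as for Dbp, WT mouse 2 was the highest of the 6. Bhlhe40 and Bhlhe41 encode DEC repressors that bind E-boxes. Bhlhe40 was at 144, 189 and 131 CPM in KO mice 1, 2 and 3, against 192, 234 and 71.6 CPM in WT mice 1, 2 and 3 (log2 fold change -0.10 ± 0.40, edgeR adjusted p = 0.949), with WT mouse 3 low. Bhlhe41 averaged 2.10 ± 0.951 CPM in KO and 2.13 ± 1.44 CPM in WT (edgeR adjusted p = 0.995). The casein kinase genes Csnk1d and Csnk1e, whose products mark PER proteins for degradation, gave log2 fold changes of 0.08 ± 0.14 and -0.09 ± 0.25 (edgeR adjusted p = 0.873 and 0.921). Usp2, a deubiquitinase gene under clock control, was at 16.7 ± 3.49 CPM in KO and 21.5 ± 12.3 CPM in WT (log2 fold change -0.36 ± 0.39, edgeR adjusted p = 0.770).

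Likeness to Arntl and Dbp was measured over the 6 mice as the root mean square difference of mean-centred log2(CPM + 0.5), among 11314 other protein-coding genes with a mean log2 CPM of at least 1. Nearest to Dbp was Tert, the telomerase gene, at 0.17, followed by Usp2 at 0.22, the phosphodiesterase gene Gpcpd1 at 0.25 and the transcription factor gene Tcf21 at 0.26, against a median of 0.62 over all genes. Each of these 4 was highest in WT mouse 2. Nearest to Arntl were the uridine phosphorylase gene Upp1 at 0.20, Acmsd, an enzyme gene of tryptophan breakdown, at 0.23, Tmem136 at 0.23 and the kinetochore gene Cenpq at 0.25, against a median of 0.69. Each was highest in WT mouse 3. Npas2 was below the log2 CPM limit and was not compared. Among the other clock genes Nr1d1 was nearest to Arntl, at 0.58, followed by Cry2, which varied little, at 0.63. Per2 was farthest from Arntl, at 0.93. From Dbp, Arntl was farthest at 0.89. With 6 mice, and with 1 mouse setting most of each pattern, these distances describe the livers and no more.

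Of the listed genes that carry clock rhythm into liver metabolism, none passed over all genes in edgeR. The counts below lay near the shares over all genes tested. Of 25 output genes tested, 0 passed an adjusted p of 0.05. At an unadjusted p under 0.05 there were 2 higher and 2 lower in KO, where 5.22% and 7.59% of all genes tested did so. Leaving out each mouse in turn moved this count of 4 to between 3 and 8, the highest without WT mouse 3. Noct, which encodes the rhythmic phosphatase nocturnin, had 37.1, 52.4 and 45.3 CPM in KO mice 1, 2 and 3, against 99.4, 140.6 and 68.6 CPM in WT mice 1, 2 and 3. All KO values lay below all WT values, and the log2 fold change was -1.19 ± 0.26 (edgeR unadjusted p = 0.0021, adjusted p = 0.217), while DESeq2 called it (adjusted p = 0.00311). Leaving out each mouse in turn gave -1.41 to -0.89. In counts simulated from these data, 22.9% of DESeq2 calls at an adjusted p under 0.05 were false, against 9.19% for edgeR. The simulation used edgeR's dispersions and these shares are averages over all calls, so they cannot tell whether the call of Noct was false. Mfsd2a, a lipid transporter gene, gave 135 ± 53.8 CPM in KO and 238 ± 57.8 CPM in WT (log2 fold change -0.81 ± 0.33, edgeR adjusted p = 0.373). Without KO mouse 1 it was -0.50 (unadjusted p = 0.0628), and its unadjusted p was also above 0.05 without WT mouse 1 or WT mouse 2 (0.0944 and 0.139). Avpr1a, the vasopressin receptor gene, gave 46.6 ± 8.94 CPM in KO and 29.3 ± 6.87 CPM in WT (log2 fold change 0.67 ± 0.21, edgeR adjusted p = 0.268). Elovl3, a fatty acid elongase gene known for its rhythm in mouse liver, had 23, 21 and 53 counts in KO mice 1, 2 and 3, against 4, 11 and 0 counts in WT mice 1, 2 and 3 (log2 fold change 2.79 ± 0.85, edgeR adjusted p = 0.258; 2.13 to 4.18 with each mouse left out). Among the 25, KO and WT values were apart for 3 genes higher and 3 lower in KO, where 8.81% and 9.42% of all genes tested were. These were the 4 just named, Cys1 (edgeR adjusted p = 0.560; named after its values were seen) and the lipase gene Pnpla2 (82.9 ± 3.17 CPM in KO and 122 ± 50.6 CPM in WT, edgeR adjusted p = 0.426), which was -0.17 on the log2 scale without WT mouse 3. The macrophage marker sum was also lower in all KO mice than in any WT mouse, and its part in these differences was not tested. Lonrf3 gave 6.73 ± 0.660 CPM in KO and 4.47 ± 1.57 CPM in WT (edgeR adjusted p = 0.418).

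Genes driven by feeding, glucocorticoids or temperature, which also vary over the day, gave 0 of 20 at an adjusted p of 0.05 in edgeR and, at an unadjusted p under 0.05, 1 higher and 2 lower in KO, where 5.22% and 7.59% of all genes tested did so. That count of 3 ran from 1 (without KO mouse 1 or 3) to 5 (without WT mouse 1 or 3) with each mouse left out. Pck1, a gluconeogenic gene of the fasted state, had 692, 873 and 1020 CPM in KO mice 1, 2 and 3, against 1043, 1540 and 3222 CPM in WT mice 1, 2 and 3. The groups were apart by a narrow gap, with a log2 fold change of -1.17 ± 0.40 (edgeR adjusted p = 0.301; DESeq2 adjusted p = 0.0498) that was -0.58 without WT mouse 3. Rbm3, a cold-inducible RNA-binding protein gene, gave 45.8 ± 5.02 CPM in KO and 64.3 ± 16.6 CPM in WT (log2 fold change -0.49 ± 0.19, edgeR adjusted p = 0.346). Its groups overlapped, and without WT mouse 3 its log2 fold change was -0.28 (unadjusted p = 0.111). Sgk1, G6pc and Igfbp1, which respond to glucocorticoids and insulin, overlapped between genotypes (edgeR adjusted p = 0.587, 0.638 and 0.760), and Igfbp1 ran from 57.7 to 715 CPM in KO mice and from 228 to 943 CPM in WT mice.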

How the data were processed

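Liver poly(A) RNA from 6 mice was sequenced, and the authors deposited raw counts per gene, 1 column a mouse. Per the submitters' processing notes, the build was GRCm38.p6 and the tools were featureCounts 1.5.0-p3, HISAT2 2.0.5 and StringTie 1.3.3b. The annotation release, the strand setting and the handling of reads with several matches were not given in the sources used. Of 54682 rows, 150 without an Ensembl ID held 0.273% to 0.509% of counts and were left out. GENCODE M21 of the same build gave symbols for 54495 rows, positions and merged exon lengths.

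In R 4.3.3, edgeR 4.0.16 kept 14145 genes (filterByExpr), scaled by TMM and tested genotype with the robust quasi-likelihood F test, adjusted by Benjamini-Hochberg over all genes. The standard error is the fold change over the square root of F; intervals use its t quantile. The fit was tested on counts simulated from these means, dispersions and depths, in 3 runs with 200 genes changed. At an adjusted p under 0.05 edgeR found 39.7% of 2-fold and 80% of 4-fold changes. Of its calls, 9.19% were false. Depth puts 3 counts, the limit for a count of 0, at 0.155 to 0.194 CPM before TMM scaling, counting error only. Mice are the replicates.

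The clock genes and lists were chosen with earlier results of these data known. Loop genes were named from a list of 12 always named or by unadjusted p; of the other lists, the 6 with smallest p; 2 genes named by these rules are not reported here; Lcn2, Mki67, Glul and the other genes described by their spread were chosen after their values were seen. Alternatives were RLE scaling, other low-count filters, DESeq2 1.42.0, limma 3.58.1 (voom), a replicate block, other pseudocounts, each mouse left out, and, chosen after seeing the data, the older quasi-likelihood fit.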

Additional observations from a re-analysis of the deposited data

How the results depend on the processing

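The count of clock genes past the adjusted threshold was 0 in every alternative run, and the count at an unadjusted p under 0.05 was 0 except that leaving out each mouse in turn gave 0 to 1 (Per1 without KO mouse 3, Dbp without WT mouse 1, Per3 without WT mouse 2, Arntl without WT mouse 3). The count over all genes, 2 in the main fit, was 6 without a low-count filter, 340 with DESeq2, 0 with limma-voom, 1 with the older quasi-likelihood fit and 0 to 151 with each mouse left out. Nothing in the labels says that mouse numbers pair the mice. Deviations of same-numbered mice from their group means correlated at -0.02, -0.02 and -0.01, and no mouse correlated best with its own number. With 3 mice per genotype and all correlations near 0, this check cannot exclude pairing. With the replicate block 1 gene and 0 clock genes passed. The Dbp to Arntl difference ran from -1.27 to 0.0741 with each mouse left out. Signs of small differences turned: Arntl was 0.20 with limma-voom and 0.22 with the replicate block, Nr1d1 -0.0004 with limma-voom, Tef 0.0082 with limma-voom and 0.0127 with the block, Bhlhe40 0.0263 and 0.0413 with the same, and Bhlhe41 -0.0143 with DESeq2 and -0.0089 with the older fit. With each mouse left out, log2 fold changes ran from -0.46 to 0.99 for Arntl, -0.97 to 0.0513 for Npas2, -0.78 to -0.18 for Per1, 0.27 to 0.73 for Per3, 0.040 to 0.42 for Cry1, -0.86 to -0.003 for Dbp, -0.0552 to 0.40 for Per2, -0.0274 to 0.0858 for Cry2, -0.15 to 0.25 for Nr1d1, -0.0504 to 0.21 for Nr1d2, -0.12 to 0.21 for Clock, -0.10 to 0.19 for Tef, -0.10 to 0.54 for Hlf, -0.46 to 0.24 for Bhlhe40, -0.29 to 0.69 for Bhlhe41, -0.0236 to 0.18 for Csnk1d, -0.23 to 0.15 for Csnk1e and -0.64 to 0.21 for Usp2; the cause was not tested. Cd44 was not called with limma-voom (adjusted p = 0.280) or without KO mouse 1, 2 or 3 (0.331, 0.0977 and 0.158). Low counts limit what can be told of Npas2.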

Other observations

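Genes of bile acid and drug metabolism known to follow the clock differed widely between single livers; they were picked after their values were seen. Cyp7a1, the rate-limiting enzyme gene of bile acid synthesis, had 466, 178 and 406 CPM in KO mice 1, 2 and 3, against 59.4, 338 and 52.8 CPM in WT mice 1, 2 and 3, and the groups overlapped through WT mouse 2 (edgeR adjusted p = 0.588). Cyp2e1, the ethanol-oxidising cytochrome P450 gene, ran from 2228 to 3654 CPM in KO mice and was at 1622, 4171 and 1278 CPM in WT mice 1, 2 and 3 (edgeR adjusted p = 0.859). WT mouse 2, the mouse with the highest Dbp, was thus also the WT mouse with the highest Cyp7a1 and Cyp2e1. Over both genotypes it was highest for Cyp2e1 but not for Cyp7a1, and the other livers did not follow Dbp. KO mice 1 and 3 had more Cyp7a1 than WT mouse 2, with Dbp at 53.1 and 32.3 CPM against 93.5 CPM. WT mouse 3 had the lowest Cyp7a1 and Cyp2e1 of all mice, with Dbp at 50.2 CPM, above that of KO mice 2 and 3. The heat shock gene Hspa1b was at 135, 55.1 and 41.3 CPM in KO mice 1, 2 and 3, against 239, 17.0 and 24.3 CPM in WT mice 1, 2 and 3 (edgeR adjusted p = 0.949). Its highest value was in WT mouse 1, the mouse with the lowest Dbp. The next highest was in KO mouse 1, where Dbp was below that of WT mouse 2 only.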
